A study of Rattus norvegicus with 21 samples.

Results

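Hypoxia and glycolysis genes were followed in PC12 cells, a rat pheochromocytoma line of the adrenal medulla, labelled as a neuronal cell. The set held 5 genes out of the 32883 gene IDs in the count tables: Hif1a (ENSRNOG00000008292.6), Vegfa (ENSRNOG00000019598.8), Slc2a1 (ENSRNOG00000007284.7), Hk2 (ENSRNOG00000006116.3) and Ldha (ENSRNOG00000013009.2). They were found by ID and named by the list that defined the set, since the count tables carry IDs alone. All 5 passed the filter on low counts, and 13550 genes were tested. The 21 messenger RNA libraries fell into 7 groups of 3. A vehicle group, which the labels also call untreated, was set beside cells given a water or an ethanol extract of Jakyakgamcho-tang (JGT), a traditional decoction of peony root and licorice, at 4 µg/mL (low), 20 µg/mL (medium) or 100 µg/mL (high). How long the cells were exposed, at which oxygen level, and what the vehicle was are not given in the sources used here. All groups are of 1 cell line. The labels do not say whether a group's 3 libraries were grown separately, so a p-value here reflects library-to-library spread that may be technical. The labelled cell type could not be checked against chromaffin cell markers, because no table paired their symbols with the IDs.

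Hif1a encodes the oxygen-regulated alpha subunit of the hypoxia-inducible factor HIF1. That subunit is made continuously and, when oxygen is plentiful, is hydroxylated, bound by the von Hippel-Lindau protein and degraded, so its activity is set largely at the protein level. When the protein accumulates it pairs with ARNT, binds hypoxia response elements and raises transcription of target genes. The other members are well-known targets of this kind. Vegfa encodes the secreted growth factor that drives new blood vessels, Slc2a1 the glucose transporter GLUT1, Hk2 the hexokinase that traps glucose in the cell as glucose 6-phosphate, and Ldha the lactate dehydrogenase subunit that turns pyruvate into lactate. PC12 cells are a common model of how catecholamine-making cells respond to low oxygen.

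The hypoxia response element has a short core, read as ACGTG or GCGTG, and the sequences before the start sites of the members are shown to place that core beside the values. Whether a core bears on those values was not tested. The windows are the 250 bases before the start in RefSeq's GRCr8 assembly, and all 5 genes had 1, with a pair of windows for Vegfa. Each core was searched on both strands, so that CACGT and CACGC are its reverse-strand readings, and the palindrome CACGTG counts on both. Of 33469 RefSeq windows of this length, 36.7% held at least 1 match, 16.02% at least 2, 6.21% at least 3 and 2.44% at least 4. Hif1a (chr6:98359648-98359897, plus strand) held 3 matches in 2 stretches. These were a CACGTG from position -229 to -224 and an ACGTG from -164 to -160, with -1 the last base before the start. Slc2a1 (chr5:138002272-138002521, plus strand) held 4 matches, and Ldha (chr1:106507842-106508091, plus strand) 4 matches in 3 stretches, the farthest a CACGTG from -87 to -82. Hk2 (chr4:116841276-116841525, minus strand) and both windows of Vegfa (chr9:22452604-22452853 and chr9:22460028-22460277, plus strand) held 0 matches, which says only that these letters are not in these windows. Capitals mark the matches:
Hif1a: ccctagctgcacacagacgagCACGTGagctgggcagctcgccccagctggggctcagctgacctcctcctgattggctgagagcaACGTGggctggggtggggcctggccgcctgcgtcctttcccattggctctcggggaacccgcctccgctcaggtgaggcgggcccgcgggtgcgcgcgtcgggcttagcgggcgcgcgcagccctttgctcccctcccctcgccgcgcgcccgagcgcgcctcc
Slc2a1: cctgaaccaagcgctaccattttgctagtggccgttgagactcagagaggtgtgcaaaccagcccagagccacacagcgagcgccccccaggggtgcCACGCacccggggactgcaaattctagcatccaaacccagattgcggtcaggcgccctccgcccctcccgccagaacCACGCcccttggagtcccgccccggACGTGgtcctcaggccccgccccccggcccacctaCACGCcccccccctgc
Ldha: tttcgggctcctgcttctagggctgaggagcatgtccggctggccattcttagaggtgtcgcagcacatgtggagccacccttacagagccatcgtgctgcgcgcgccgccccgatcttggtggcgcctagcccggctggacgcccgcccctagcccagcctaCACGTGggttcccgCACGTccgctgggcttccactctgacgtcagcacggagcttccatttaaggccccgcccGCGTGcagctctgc

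Levels between genes were compared as TPM, the deposited transcript abundance scaled to a fixed library sum, which divides by effective length. In vehicle, Ldha stood at 2507 ± 79.6 TPM (SD, n = 3) and ranked 38 among the 13550 genes tested. Vegfa stood at 191 ± 3.75 TPM (SD, n = 3; rank 800) and Hif1a at 141 ± 16.5 TPM (SD, n = 3; rank 1073). Slc2a1 and Hk2 were lower, at 43.7 ± 1.6 and 28.3 ± 1.09 TPM (SD, n = 3 each; ranks 3342 and 4669). The lactate-making enzyme was thus 88.7 times as abundant per length as the hexokinase and 17.8 times as abundant as Hif1a. All further values are CPM, counts scaled to TMM-adjusted library totals, which compare 1 gene between libraries.

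Before the results, 3 libraries that stood apart need naming: replicate 1 of the low dose and replicates 2 and 3 of the medium dose of ethanol extract. In these libraries the median distance of a gene from its own median over all 21 was 0.207 to 0.34 log2 units, against 0.052 to 0.158 in the remaining 18. Their fragments, read from gene length minus effective length, were shorter, at 179 to 202 bases against 205 to 241 bases, and their total expected counts were 8344416 to 14918515, against 15005249 to 28420922. Of those 18, medium-dose ethanol replicate 1 had the largest distance (0.158) and the smallest total (15005249). The distance does not tell a response to the extract from a technical difference. What part these library differences have in the results below was not tested. Results are therefore given with 21 libraries and in part also with 18. Where no value with 18 libraries is printed, it may still differ.

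Hif1a rose with the high dose of ethanol extract, and its level was above vehicle in nearly every extract library. The vehicle libraries held 424, 375 and 360.1 CPM (386 ± 33.2, SD, n = 3). The high-dose ethanol libraries held 666, 589 and 522 CPM (593 ± 71.9, SD, n = 3). The lowest of these was above the highest vehicle library, as for 18.7% of all genes tested in this comparison. In bulk RNA of this kind, a change in the share of cells and a change in RNA per cell cannot be told apart. The log2 fold change was 0.62 ± 0.129 (SE), a 1.53-fold rise, with an edgeR quasi-likelihood adjusted p of 0.00997. Of all genes tested, 2.1% were called higher and 3.92% in either direction. Hif1a was the only one of the 5 members called. With 18 libraries the log2 change was 0.62 ± 0.0984 (SE; edgeR adjusted p = 0.000534), where 22.7% of genes were called. The call was lost without vehicle replicate 3 (log2 change 0.57, edgeR adjusted p = 0.0655) as well as when replicate 1 of the high ethanol dose was left out (0.52, edgeR adjusted p = 0.0698).

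At the lower doses of ethanol extract, Hif1a lay above vehicle without passing the threshold in that fit of 21 libraries. The low-dose libraries held 607, 502 and 467 CPM (525 ± 72.8, SD, n = 3), all above the 3 vehicle libraries, as for 15.6% of genes. The log2 change was 0.44 ± 0.128 (SE; edgeR adjusted p = 0.0719), where 2.59% of genes were called. The medium-dose libraries held 552, 549.7 and 397 CPM (499.6 ± 89.1, SD, n = 3), and the last of them lay inside the vehicle range. That library, replicate 3, was 1 of the 3 that stood apart, as was replicate 2. The medium-dose log2 change was 0.37 ± 0.128 (SE; edgeR adjusted p = 0.0598), where 13.3% of genes were called. With 18 libraries the medium dose, then a single library taken to vary as much as the rest, gave 0.52 ± 0.136 (SE; edgeR adjusted p = 0.0122), where 24.9% were called, and the low dose 0.32 ± 0.109 (SE; edgeR adjusted p = 0.0785), where 9.7% were called. Leaving out 1 library brought the low-dose change past the threshold without medium-dose ethanol replicate 1 or 3 or low-dose replicate 3 (edgeR adjusted p = 0.0341, 0.0217 and 0.0448, where 8.94, 5.27 and 3.88% of genes were called). The medium-dose change passed without low-dose ethanol replicate 1 or medium-dose replicate 3 (edgeR adjusted p = 0.0447 and 0.0316, where 17.0 and 2.46% were called). Both doses passed when a term for replicate number was added to the fit of 21 libraries (edgeR adjusted p = 0.00604 and 0.0119). There 344 and 1584 of 13550 genes were called.

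In the water extract groups Hif1a also lay above vehicle, and none of the 3 doses passed in the fit of 21 libraries with group as its only term. The low-dose water libraries held 529, 460.1 and 453 CPM (481 ± 42.3, SD, n = 3). At the medium dose they held 499, 459 and 426 CPM (461 ± 36.5, SD, n = 3), and at the high dose 570.0, 495 and 484 CPM (516 ± 46.8, SD, n = 3). In all 3 groups every library lay above every vehicle library, as for 15.9, 8.71 and 11.9% of genes at the low, medium and high dose. The log2 changes were 0.32 ± 0.128, 0.26 ± 0.128 and 0.42 ± 0.128 (SE; edgeR adjusted p = 0.384, 1 and 0.384), where 0.369, 0.00738 and 0.0664% of genes were called. With 18 libraries the high-dose change passed, at 0.42 ± 0.0983 (SE; edgeR adjusted p = 0.0305), where 4.33% of genes were called. The low and medium doses did not (edgeR adjusted p = 0.0575 and 0.373), where 10.5 and 0.283% were called. With a term for replicate number, the fit of 21 libraries called the high dose (edgeR adjusted p = 0.0493, 15 of 13550 genes called). It did not call the low or medium dose (edgeR adjusted p = 0.0742 and 0.947, 73 and 1 genes called). Fits of vehicle and 1 water group alone called Hif1a at the low and high dose (edgeR adjusted p = 0.00948 and 0.00635), where 12.5 and 3.27% of genes were called. The medium dose did not pass there (edgeR adjusted p = 0.0895, 127 of 13048 genes called). Such fits with 1 ethanol group gave edgeR adjusted p = 0.0735, 0.383 and 0.00179 from low to high dose. They called 128 of 12964, 0 of 12792 and 3140 of 12987 genes.

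Over both extracts, 17 of 18 extract libraries held more Hif1a than the highest vehicle library, the exception being medium-dose ethanol replicate 3. At least 17 of the 18 were above for 2.86% of genes tested, and all 18 for 1.17%. Without the libraries that stood apart this was 15 of 15, as for 2.06% of all genes tested. The mean of the 6 extract groups was compared with vehicle after these values had been seen. The log2 change of Hif1a was 0.40 ± 0.101 (SE; edgeR adjusted p = 0.0481), where 1.8% of genes were called. The 18 libraries gave 0.41 ± 0.0794 (SE; edgeR adjusted p = 0.00262), where 19.5% were called. With 21 libraries the call was close to the threshold. It was lost in 15 of 21 fits that left out 1 library, among them each vehicle library in turn (edgeR adjusted p = 0.149, 0.194 and 0.325 without replicates 1, 2 and 3). Across those 21 fits the log2 change of Hif1a was 0.35 to 0.47, and 12 to 1226 of all genes were called. All these comparisons use the same 3 vehicle libraries.

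**Figure D1:**
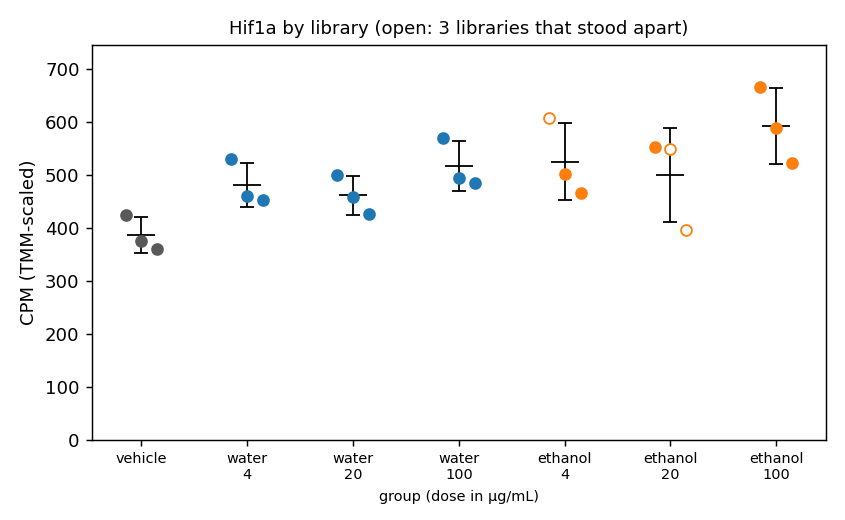
Hif1a in CPM on the vertical axis for each of the 7 groups, with the dose in µg/mL under each extract. Points are libraries, open where a library stood apart, and bars are the mean ± SD of 3 libraries. The vehicle libraries sit at 360.1 to 424 CPM and the high-dose ethanol libraries at 522 to 666 CPM, with 1 medium-dose ethanol library at 397 CPM.

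The order of the Hif1a group means ran from high-dose ethanol (593 CPM) through low-dose ethanol (525), high-dose water (516), medium-dose ethanol (499.6), low-dose water (481) and medium-dose water (461) to vehicle (386). Neighbours in this order differed by less than the larger of their SDs in 5 of 6 steps. The exception was the step of 75.0 CPM from medium-dose water to vehicle, against an SD of 36.5 CPM. For Slc2a1 the count was also 5 of 6, the exception being 4.79 CPM from high-dose ethanol to vehicle, against an SD of 4.74 CPM. For Vegfa, Hk2 and Ldha it was 6 of 6. The order comes from these same means, so the steps are a description and not a test.

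No difference in Hif1a between the extracts passed the threshold with 21 or with 18 libraries when group was the only term. At the same dose the ethanol and water libraries overlapped at all 3 doses. The ethanol minus water log2 difference was 0.13 ± 0.128 at the low, 0.11 ± 0.128 at the medium and 0.20 ± 0.128 at the high dose (SE; edgeR adjusted p = 0.925, 0.563 and 0.64), where 0.0221, 7.34 and 0.0443% of genes were called. The average over doses was 0.15 ± 0.0739 (SE; edgeR adjusted p = 0.2), with a 95% interval of -0.01 to 0.30, where 9.28% of genes were called. With 18 libraries the low-dose difference became 0.011 ± 0.11 (SE; edgeR adjusted p = 0.989, 0.305% called) and the medium-dose difference, resting on 1 ethanol library, 0.26 ± 0.137 (SE; edgeR adjusted p = 0.215, 18% called). The average became 0.16 ± 0.067 (SE; edgeR adjusted p = 0.113, 20.9% called). The high-dose difference became 0.20 ± 0.0978 (SE; edgeR adjusted p = 0.204, 11.3% called). High against low dose gave 0.10 ± 0.128 for water and 0.17 ± 0.128 for ethanol extract (SE; edgeR adjusted p = 1 for each), where 0.0 and 0.00738% were called. The difference between these dose steps was 0.07 ± 0.181 (SE; edgeR adjusted p = 1), where 0.0% were called. Its 95% interval was -0.31 to 0.45. With 18 libraries the ethanol step of Hif1a was 0.29 ± 0.11 and the difference of steps 0.19 ± 0.147 (SE; edgeR adjusted p = 0.385 and 0.767, 0.596 and 0.00727% called).

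The deposited length of a gene is the mean over its transcripts weighted by their estimated abundance, so it moves when the mix of transcripts moves. For Hif1a, with 2 transcripts, it was 3756 to 3796 bases in vehicle and 3655 to 3848 bases in high-dose ethanol libraries, and these ranges overlap. Over all 21 libraries it ran from 3620 to 3898 bases. With each library's effective length as an offset, the high-dose ethanol change of Hif1a was 0.63 on the log2 scale (edgeR adjusted p = 0.0141), beside 0.62 without it.

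Vegfa, the secreted factor, did not pass the threshold in any comparison with 21 libraries. The vehicle libraries held 468, 467 and 487 CPM (474 ± 11.4, SD, n = 3), with the lowest coefficient of variation of any group and member, 2.4%. The low-dose water libraries held 536, 519.6 and 507 CPM (521 ± 14.5, SD, n = 3), all above vehicle, as for 15.9% of genes. The log2 change was 0.14 ± 0.0982 (SE; edgeR adjusted p = 0.742, or 0.1 in the fit of 18 libraries). The high-dose water libraries held 429, 481 and 466 CPM, all below the low-dose water libraries, as for 9.08% of genes. That high minus low difference was -0.18 ± 0.0982 on the log2 scale (SE; edgeR adjusted p = 1, or 0.118 in the fit of 18 libraries, where 0.349% of genes were called). In the high-dose ethanol group Vegfa stood at 496, 505 and 441 CPM (481 ± 34.7, SD, n = 3), on both sides of vehicle, with a log2 change of 0.02 and a 95% interval of -0.19 to 0.23.

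The highest Vegfa values belonged to libraries that stood apart. The medium-dose ethanol libraries held 442, 594 and 616 CPM (550.4 ± 94.8, SD, n = 3), and the last 2 of these are such libraries. The log2 change from vehicle was 0.22 ± 0.0983 (SE; edgeR adjusted p = 0.136). Those 2 libraries alone, replicate 1 being left out, gave 0.35 ± 0.0723 (SE; edgeR adjusted p = 0.000556). In the fit of 18 libraries replicate 1 alone remained and gave -0.10 ± 0.0749 (SE; edgeR adjusted p = 0.37). The ethanol minus water difference at this dose was alike, at 0.26 ± 0.0983 with all libraries, 0.40 ± 0.0722 without replicate 1 and -0.05 ± 0.0747 with 18 libraries (SE; edgeR adjusted p = 0.0894, 0.000161 and 0.704). Averaged over doses, the difference was 0.08 ± 0.0567 (SE; edgeR adjusted p = 0.339), and it passed without that replicate (0.13 ± 0.0391, SE; edgeR adjusted p = 0.0139). Leaving out replicate 1 also raised the calls over all genes, to 44.4% against vehicle, 43.8% against water at this dose and 36.0% averaged over doses. The direction at the medium dose therefore depends on which of its libraries are used.

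Slc2a1, the glucose transporter, passed the threshold in no comparison with 21 libraries. The vehicle libraries held 77.2, 83.2 and 78.5 CPM (79.6 ± 3.15, SD, n = 3). The low-dose ethanol libraries held 71.9, 71.9 and 76.3 CPM (73.4 ± 2.57, SD, n = 3), all below vehicle, as for 15.9% of genes. The change was -0.12 ± 0.0771 on the log2 scale (SE; edgeR adjusted p = 0.462). The high-dose ethanol libraries held 79.1, 85.9 and 88.2 CPM (84.4 ± 4.74, SD, n = 3), all above the low-dose ones, as for 6.97% of genes. That high minus low difference was 0.20 ± 0.0771 on the log2 scale (SE; edgeR adjusted p = 0.919, or 0.252 in the fit of 18 libraries). Against vehicle the high dose gave 0.08 ± 0.0765 (SE; edgeR adjusted p = 0.638). The 9 water libraries held 72.2 to 84.3 CPM and overlapped vehicle at every dose.

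Hk2, the hexokinase, passed the threshold in no comparison with 21 libraries. It held 106, 119 and 118 CPM in vehicle (114 ± 7.12, SD, n = 3). The high-dose ethanol libraries held 102, 109 and 123 CPM (111 ± 10.7, SD, n = 3), around vehicle, with a log2 change of -0.04 and a 95% interval of -0.31 to 0.23 (edgeR adjusted p = 0.937). The medium-dose ethanol libraries spread most, at 95.3, 126 and 159.6 CPM (127 ± 32.2, SD, n = 3). The lowest was the library that did not stand apart and the highest was 1 that did. The log2 change there was 0.15 ± 0.129 with all libraries, 0.32 ± 0.101 without replicate 1 and -0.26 ± 0.102 with 18 libraries (SE; edgeR adjusted p = 0.421, 0.0125 and 0.069), so its direction turned. The ethanol minus water difference at that dose went from 0.23 ± 0.129 to 0.40 ± 0.1 without replicate 1 and to -0.18 ± 0.102 with 18 libraries (SE; edgeR adjusted p = 0.236, 0.00298 and 0.232). Without replicate 1, 44.4% of all genes were called against vehicle and 43.8% against water at that dose. The 9 water libraries held 105 to 124 CPM, overlapped vehicle at each dose and gave log2 changes of -0.07 to 0.05.

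Ldha, the most abundant member, held 2507, 2713 and 2802 CPM in vehicle (2674 ± 151, SD, n = 3). The high-dose ethanol libraries held 2688, 2508 and 2666 CPM (2621 ± 98.2, SD, n = 3) and the high-dose water libraries 2538, 2818 and 2652 CPM (2670 ± 141, SD, n = 3). Both groups overlapped vehicle, with log2 changes of -0.03 and -0.0021 (edgeR adjusted p = 0.936 and 1). The largest value of all, 3482 CPM, was in medium-dose ethanol replicate 3, and the other 2 libraries of that group held 2639 and 2514 CPM. At the medium dose the log2 change was 0.11 ± 0.104 (SE; edgeR adjusted p = 0.49). The fit of 18 libraries gave -0.02. RSEM gave Ldha a count that was not whole in 21 of 21 libraries, so some of its reads were divided with other genes, while the other 4 members had whole counts in every library.

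**Figure D2:**
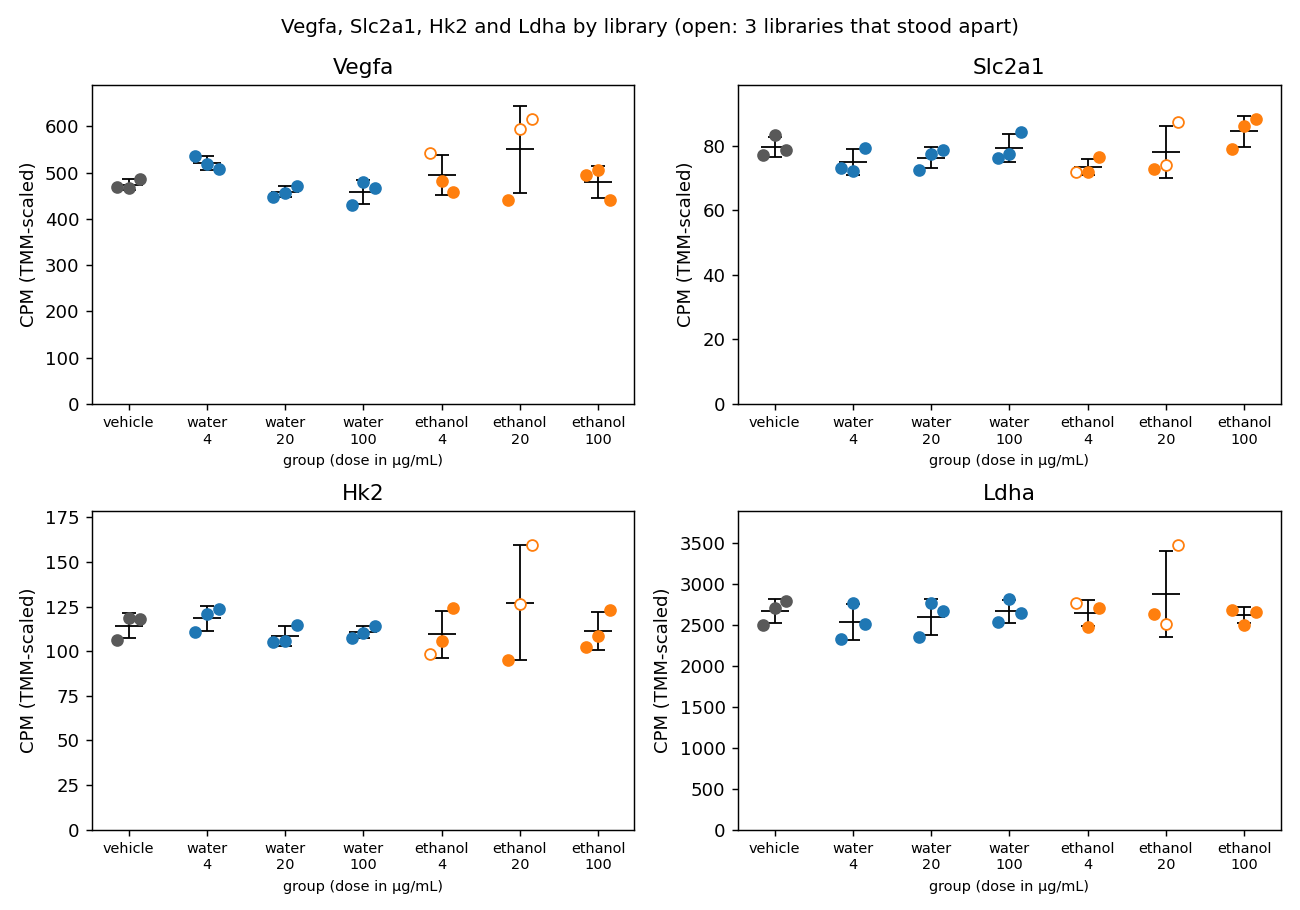
Vegfa, Slc2a1, Hk2 and Ldha in CPM on the vertical axes, by group, with the dose in µg/mL. Points are libraries, open where a library stood apart, and bars are the mean ± SD of 3 libraries. For Vegfa, Hk2 and Ldha the highest point, at 616, 159.6 and 3482 CPM, is medium-dose ethanol replicate 3.

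None of the other 4 members passed the threshold with 21 libraries, whereas Hif1a did at the high dose of ethanol extract. Of 30 tests of a member against vehicle, 1 passed with 21 libraries, that of Hif1a at the high dose of ethanol extract. An unadjusted edgeR p under 0.05 was found in 6 of the 30, 5 of them Hif1a. Of all 13550 genes tested, 424 (medium-dose water) to 4410 (medium-dose ethanol) had such a p in a comparison with vehicle. DESeq2 called 3 of these 30, all Hif1a, at the 3 doses of ethanol extract (adjusted p = 0.0287, 0.0375 and 0.000415 from low to high, where it called 5.28, 18.6 and 5.87% of genes). In the mean over the 6 extract groups, the log2 changes were 0.06 for Vegfa, -0.04 for Slc2a1, -0.0022 for Hk2 and -0.01 for Ldha, with edgeR adjusted p of 0.792 to 0.997. Their 95% intervals together ran from -0.21 to 0.21, while that of Hif1a was 0.19 to 0.61. Whether Hif1a differs from the other members in its response was not tested. At the high dose of ethanol extract 3 of 5 members had a positive log2 change, with a median of 0.02 beside 0.0032 for all genes tested. Neither edgeR nor DESeq2 called any of the 20 ethanol against water tests (0 and 0), and edgeR's unadjusted p was under 0.05 in 1. The 15 tests of dose gave the same counts: 0 called by either tool and 1 under 0.05 before adjustment by edgeR. Of all 13550 genes, 725 to 4130 were under 0.05 before adjustment in an ethanol against water comparison. In a comparison of doses 425 to 650 were.

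**Figure D3:**
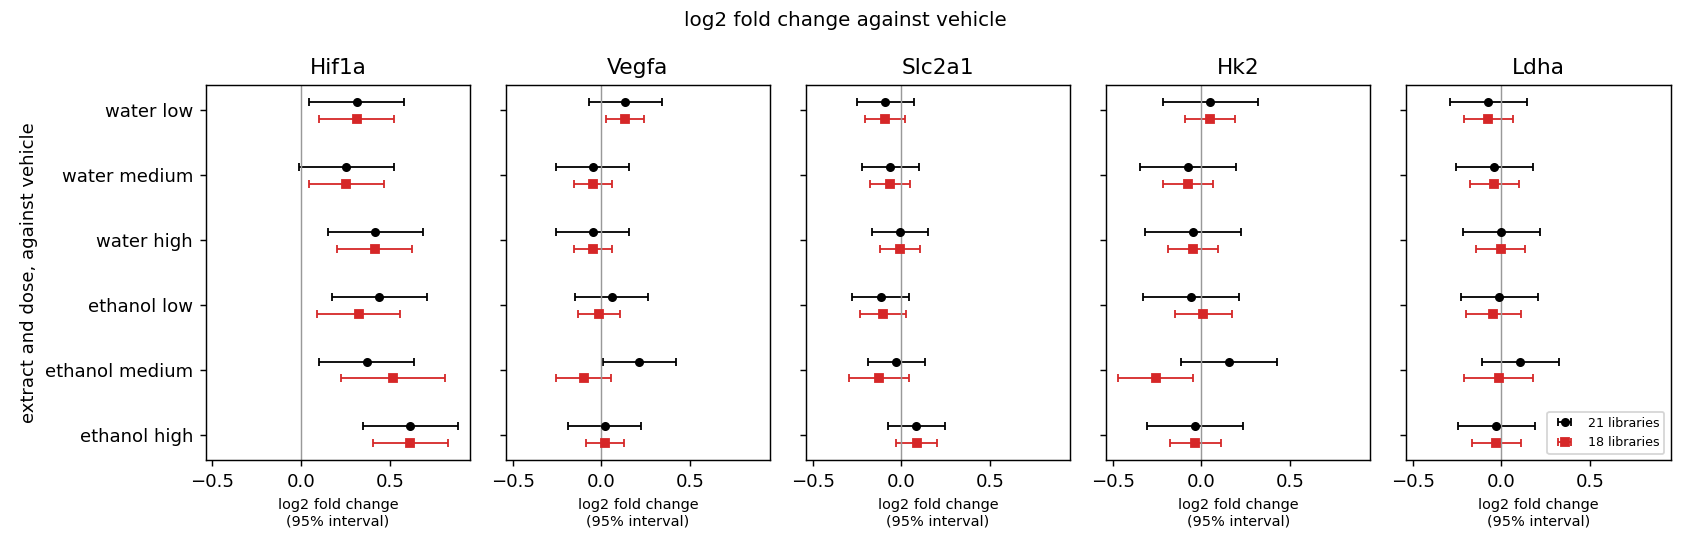
The log2 fold change from vehicle on the horizontal axis, with its 95% interval, for the 5 members at each extract and dose, by edgeR with 21 libraries (black circles) and with 18 libraries (red squares). Hif1a lies to the right of 0 in all 6 comparisons, from 0.26 to 0.62 with 21 libraries, and the medium-dose ethanol values of Vegfa and Hk2 lie on opposite sides of 0 in the 2 fits.

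The spread within groups was uneven among members. The coefficient of variation over the 3 libraries of a group had a median over the 7 groups of 9.07% for Hif1a, 6.23% for Hk2, 5.85% for Ldha, 5.77% for Vegfa and 5.29% for Slc2a1. Its highest value was in the medium-dose ethanol group for every member, from 10.3% for Slc2a1 to 25.3% for Hk2. The highest group mean was 1.53 times the lowest for Hif1a and 1.13 to 1.2 times for the others. By likeness of pattern over the 18 libraries, among 9091 genes of at least 10 CPM on average, the gene closest to Hif1a was ENSRNOG00000032626.4 (Pearson r of log2 CPM 0.934), and the gene closest to Vegfa was ENSRNOG00000039807.4 (r 0.877). No other member was close to Hif1a, the nearest being Vegfa at an r of -0.01, and the closest pair of members was Hk2 and Slc2a1 at 0.388. These correlations describe libraries that share groups and totals.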

How the data were processed

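Counts of messenger RNA libraries from PC12 cells, 21 in 7 groups of 3, were used. The authors deposited expected counts per gene, not normalized, with TPM (per effective length, with a fixed sum per library) and an effective length, per the file headers. The submitters' processing notes name RSEM 1.3.3 as a tool. Build, annotation, strand setting and aligner version are not given in the sources used here. Groups and replicate numbers came from the labels. Total expected counts were 8344416 to 28420922 per library. None of the 21 within-group pairs of libraries agreed to within sampling noise (chi-square over its degrees of freedom, 2.96 to 140.2).

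Expected counts were rounded, filtered by edgeR's default, TMM-scaled and tested with edgeR's quasi-likelihood test (edgeR 4.0.16, R 4.3.3, robust), 1 coefficient per group, all 21 libraries, 13 comparisons and 1 added after the values were seen. Benjamini-Hochberg adjustment ran over all genes tested in a comparison (threshold 0.05). The SE is the absolute log2 change over the root of F. Alternatives were DESeq2 1.42.0, its size factors, no filter, effective length offsets, the replicate block, only the groups compared, 18 libraries and leaving out each library. The block with 18 libraries and fragment length as a covariate with 18 libraries were added after the data were seen. On simulated counts for high-dose ethanol against vehicle, with each gene's dispersion equal in all libraries, recovery with 21 libraries (13453 genes) was 12% for changes of 1.25-fold, 60% for 1.5-fold, 88% for 2-fold and 98% for 4-fold, and 10 of 139 calls were false. With 18 libraries (13635 genes) it was 54, 86, 92 and 100%, and 7 of 173 calls were false.

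The members, lists and tests were chosen with earlier results of these data known, and the 18-library set likewise. The members were named whatever their values, and for likeness only the closest ID of the 2 best-matched members was named. RefSeq's gene table paired 0 IDs with symbols, so the lists of other HIF, glycolysis and VEGF genes and of cell type markers could not be applied and are not analysed here.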

Additional observations from a re-analysis of the deposited data

How the results depend on the processing

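The Hif1a rise at the high dose of ethanol extract was called in 10 of 10 fits, 2 of them added after seeing the data (log2 change 0.58 to 0.63, adjusted p 1.89e-09 to 0.0141), and in 19 of 21 that left out 1 library (0.52 to 0.70, edgeR adjusted p 0.00191 to 0.0698). The mean over 6 extract groups lost its call with effective length offsets (edgeR adjusted p 0.0655). Of 30 member tests against vehicle, 1 passed in the fit reported, 3 with DESeq2, 3 with only the groups compared, 3 with 18 libraries, 4 with 18 libraries and a fragment length covariate, and 0 to 4 without 1 library. Over all genes, a comparison with vehicle called 1 to 1807 in the fit reported and 8 to 2527 with DESeq2. It called 0 to 3140 with only the groups compared and 0 to 6082 without 1 library. With 18 libraries it called 39 to 3126, or 30 to 2751 with the covariate, leaving aside the medium ethanol dose of 1 library. Ethanol against water gave 0 of 20 member calls, and 0 to 3 without 1 library. Over all genes, such a comparison called 3 to 1257, and 0 to 6005 without 1 library. Over 63 pairs of libraries with the same replicate number, the correlation of deviations ran from -0.17 to 0.25, and 11 were over 0.1. Of 21 libraries, 9 correlated best with their own number among the 3 replicate numbers. Without the medium ethanol dose and the remaining library that stood apart, 12 of 17 did. Over 40 pairs of these the correlation ran from -0.13 to 0.20, and 7 were over 0.1. Whether replicate numbers pair the libraries is not given in the labels, and these values do not settle it. With the replicate block 4 of 30 member tests passed, all Hif1a: high-dose water (log2 change 0.42, edgeR adjusted p 0.0493) and low, medium and high-dose ethanol (0.44, 0.36 and 0.61, edgeR adjusted p 0.00604, 0.0119 and 0.000324), the first 3 of which did not pass without the block. With the block, 15 of all 13550 genes were called for high-dose water, and 344, 1584 and 523 for low, medium and high-dose ethanol. The SE of the high-dose ethanol change of Hif1a was 0.0756 with the block and 0.129 without. With the block and 18 libraries 6 of 30 passed, 2 of 20 for ethanol against water and 1 of 15 for dose, again all Hif1a: ethanol minus water at the high dose (0.20, edgeR adjusted p 0.00379) and averaged over doses (0.14, edgeR adjusted p 0.00133), and high against low dose of ethanol (0.21, edgeR adjusted p 0.0291). Calls over all genes at the high dose of ethanol extract were 531 with 21 libraries, 796 with DESeq2, 3140 with only the groups compared and 3126 with 18 libraries, and at the medium dose 1807, 2527, 0 (1676 at an unadjusted p under 0.05) and 3426. With the block and 18 libraries, 1660 of all 13759 genes were called for ethanol against water at the high dose. For high against low dose of ethanol 94 were called there. Against vehicle 71 to 3299 were, leaving aside the medium ethanol dose. The average over doses took in that medium dose of 1 ethanol library. The cause of these differences between fits was not tested.

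Directions turned in 32 results, none called at the turned value or in the fit reported, given here as log2 differences. With 18 libraries, Vegfa was at -0.013 (ethanol low against vehicle), -0.10 (ethanol medium against vehicle), -0.050 (ethanol against water, medium), -0.043 (ethanol against water mean of doses), 0.033 (ethanol high against low), -0.0086 (6 extract groups against vehicle). There Slc2a1 was at -0.062 (ethanol against water, medium). There Hk2 was at 0.011 (ethanol low against vehicle), -0.26 (ethanol medium against vehicle), -0.18 (ethanol against water, medium), -0.069 (ethanol against water mean of doses), -0.045 (ethanol high against low). There Ldha was at -0.015 (ethanol medium against vehicle), 0.018 (ethanol high against low). With the replicate block and 18 libraries, Vegfa was at -0.019 (ethanol low against vehicle), -0.088 (ethanol medium against vehicle), -0.040 (ethanol against water, medium), -0.042 (ethanol against water mean of doses), 0.038 (ethanol high against low), -0.0081 (6 extract groups against vehicle). There Slc2a1 was at -0.0025 (ethanol against water, medium). There Hk2 was at -0.18 (ethanol medium against vehicle), -0.10 (ethanol against water, medium), -0.058 (ethanol against water mean of doses), -0.0053 (ethanol high against low). There Ldha was at -0.0058 (ethanol against water, low), 0.057 (ethanol high against low). With 18 libraries and a fragment length covariate, Hif1a was at -0.10 (ethanol against water, low). There Vegfa was at -0.093 (ethanol medium against vehicle), -0.036 (ethanol against water, medium), -0.025 (ethanol against water mean of doses), 0.0089 (ethanol high against low). There Slc2a1 was at 0.019 (ethanol against water, low), -0.050 (ethanol against water, medium). There Hk2 was at 0.047 (ethanol low against vehicle), -0.25 (ethanol medium against vehicle), -0.17 (ethanol against water, medium), -0.051 (ethanol against water mean of doses), -0.067 (ethanol high against low). There Ldha was at 0.020 (water high against vehicle), 0.039 (ethanol low against vehicle), -0.0039 (ethanol medium against vehicle), 0.0057 (ethanol high against vehicle). With effective length offsets, Slc2a1 was at 0.00021 (ethanol medium against vehicle). There Hk2 was at 0.0015 (6 extract groups against vehicle). Leaving out 1 library, the turning values spanned 0. For Hif1a they ran from -0.019 to 0.19 (difference of high against low, ethanol minus water). For Vegfa they ran from -0.091 to 0.030 (ethanol high against low), from -0.018 to 0.078 (ethanol high against vehicle), from -0.011 to 0.11 (ethanol low against vehicle). For Slc2a1 they ran from -0.11 to 0.020 (ethanol medium against vehicle), from -0.059 to 0.016 (ethanol against water, low), from -0.051 to 0.082 (ethanol against water, medium), from -0.054 to 0.026 (water high against vehicle). For Hk2 they ran from -0.054 to 0.13 (ethanol high against low), from -0.11 to 0.022 (ethanol high against vehicle), from -0.16 to 0.011 (ethanol low against vehicle), from -0.044 to 0.32 (ethanol medium against vehicle), from -0.067 to 0.069 (ethanol against water, high), from -0.021 to 0.10 (ethanol against water mean of doses), from -0.053 to 0.027 (6 extract groups against vehicle), from -0.00043 to 0.10 (water low against vehicle). For Ldha they ran from -0.063 to 0.015 (ethanol high against low), from -0.074 to 0.0059 (ethanol high against vehicle), from -0.057 to 0.034 (ethanol low against vehicle), from -0.051 to 0.20 (ethanol medium against vehicle), from -0.062 to 0.014 (ethanol against water, high), from -0.0096 to 0.24 (ethanol against water, medium), from -0.053 to 0.026 (6 extract groups against vehicle), from -0.047 to 0.033 (water high against vehicle), from -0.089 to 0.026 (water medium against vehicle).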

Other observations

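Hif1a had its highest value in the library numbered 1 and its lowest in the library numbered 3 in 7 of 7 groups. For Vegfa the library numbered 1 was highest in 2 of 7 groups and the library numbered 3 lowest in 3. For Slc2a1 and Hk2 both counts were 0 of 7, and for Ldha they were 2 and 0. What the numbers stand for is not given in the sources used here. How many of all genes tested share this order was not counted, so it is not read as particular to Hif1a.

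Across the 18 extract libraries the other members lay on both sides of the 3 vehicle libraries. Vegfa was above all of them in 8 and below all in 7, Slc2a1 in 4 and 9, Hk2 in 6 and 6, and Ldha in 2 and 3. No share over all genes stands beside these counts, so they are not read as a result about these members.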
